A study of Mus musculus with 11 samples.

Results

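Etfa, Etfb, Etfdh, Acadm, Acads, Acadl, Acadvl, Ivd, Gcdh and Hadha, 10 mitochondrial oxidation genes, were followed through 11 arrays of mouse tissue at E8.5. They are 10 of the 19938 genes that the table measured with a probe of a single symbol, and each had 1 such probe. They were picked by name as partners of Etfa, after its high ratios in paraxial mesoderm were known. The values of Etfa are therefore given as a description, with no test, and tests are given for the 9 partners alone. All embryos came from outbred CD1 mice with no treatment or allele named, cells were cut out with a laser, and their RNA was amplified for Affymetrix arrays. Paraxial mesoderm and neuroepithelium had 3 arrays each and neural crest had 5. The series title speaks of single cells, but no label ties an array to an embryo or to a number of cells. The p-values therefore measure the spread between these arrays, and they are too small if arrays of a tissue shared embryos. Each value is the deposited linear ratio of an array to a reference of the same probe. A gene silent everywhere and a gene equally active everywhere both sit near 1, so no level can be read from it.

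Electron transfer flavoprotein, or ETF, is a dimer of an alpha subunit (Etfa) and a beta subunit (Etfb) in the mitochondrial matrix. It takes electrons from a family of flavin enzymes, the acyl-CoA dehydrogenases, which open the oxidation of fatty acids and of several amino acids. It passes them to ETF-ubiquinone oxidoreductase (Etfdh) in the inner membrane and so to the respiratory chain. Loss of either ETF subunit or of Etfdh blocks all these dehydrogenases together in the human disease multiple acyl-CoA dehydrogenase deficiency.

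The stretches before the start sites of the ETF genes and of Acadm are shown because these genes share a pathway and yet differed in which arrays were high. Each is the 250 bases upstream of the start, 5′ to 3′ on the gene's own strand, from RefSeq on GRCm38.p6, and all 10 members had an entry. Capitals mark matches on either strand to CCAAT, to the NRF1 motif core GCATGCGC, which lies inside the full NRF1 motif, or to AAGGTCA, the core of the site of estrogen-related receptors.
Etfa, chr9:55512244-55512493, minus strand: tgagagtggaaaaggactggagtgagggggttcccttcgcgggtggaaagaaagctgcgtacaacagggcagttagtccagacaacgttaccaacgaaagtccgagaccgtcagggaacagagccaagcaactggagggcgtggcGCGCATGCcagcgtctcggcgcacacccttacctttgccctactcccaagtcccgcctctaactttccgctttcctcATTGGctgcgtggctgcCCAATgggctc
Etfb, chr7:43443822-43444071, plus strand: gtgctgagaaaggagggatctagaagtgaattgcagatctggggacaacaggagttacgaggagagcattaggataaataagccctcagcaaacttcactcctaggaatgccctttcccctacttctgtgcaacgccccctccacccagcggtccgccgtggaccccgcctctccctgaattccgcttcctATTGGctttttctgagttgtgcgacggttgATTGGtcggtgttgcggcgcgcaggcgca
Etfdh, chr3:79628768-79629017, minus strand: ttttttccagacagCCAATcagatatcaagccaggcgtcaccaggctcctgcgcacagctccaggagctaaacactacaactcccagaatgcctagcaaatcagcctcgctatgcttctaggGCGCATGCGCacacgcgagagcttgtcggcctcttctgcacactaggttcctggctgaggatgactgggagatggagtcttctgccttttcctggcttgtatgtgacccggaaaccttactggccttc
Acadm, chr3:153944644-153944893, minus strand: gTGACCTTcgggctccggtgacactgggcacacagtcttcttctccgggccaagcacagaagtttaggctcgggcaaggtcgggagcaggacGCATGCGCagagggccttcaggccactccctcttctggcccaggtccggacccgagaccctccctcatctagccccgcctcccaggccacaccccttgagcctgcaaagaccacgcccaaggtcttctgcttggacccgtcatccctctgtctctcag
The core GCATGCGC was found before Etfa, Etfdh and Acadm, 3 of 10 members, and in 2.26% of 32851 such stretches of mouse promoters. Of the 10, Etfdh alone held the full NRF1 motif, which 0.782% of all stretches hold. AAGGTCA stood before Acadm alone (4.08% of all stretches), and its longer form TNAAGGTCA before none of the 10 (1.14%). CCAAT was found before 5 members, namely Etfa, Etfb, Etfdh, Ivd and Gcdh (33.8% of all stretches). The GC box GGGCGG was found before 4 members, Acads, Acadl, Gcdh and Hadha (32.7%). None of the 6 motif forms was found before Acadvl. Etfa and Etfb, the subunits of 1 dimer, had 58.8% and 55.6% G and C and observed over expected CpG of 0.740 and 0.725, against medians of 52.4% and 0.373 over all stretches. This was not particular to the dimer. The CpG measure ran from 0.449 (Gcdh) to 0.871 (Acadl) over the 10 members, with Hadha at 0.746 and Etfdh at 0.493.

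Etfa (probe 10593789), the ETF alpha subunit, was high on every mesoderm array, where high means a ratio of at least 4. Its ratios were 28.0, 19.2 and 37.1 on paraxial mesoderm arrays 1, 2 and 3. On the neuroepithelium arrays they were 0.782, 0.979 and 0.783. On the neural crest arrays they were 0.810, 13.8, 1.03, 1 and 0.940. The mesoderm values lay above all others, and crest array 2 stood apart from the other 4 crest arrays, which overlapped the neuroepithelium. The log2 ratio averaged 4.76 ± 0.48 (SD, n = 3) in mesoderm, -0.25 ± 0.19 (n = 3) in neuroepithelium and 0.69 ± 1.74 (n = 5) in crest. The mesoderm mean was higher by log2 5.01 (32.2-fold) than that of neuroepithelium and by 4.07 (16.8-fold) than that of crest, and by 4.85 than that of crest without crest array 2. This pattern chose the members. A ratio of at least 4 on all 3 mesoderm arrays occurred for 17 of 21789 probes (0.0780%), and on those 3 and at most 1 other for 5 (0.0229%), and nothing is read from these counts. In captured and amplified tissue, more cells of a kind, more RNA per cell and uneven amplification between arrays cannot be told apart. Over the single-symbol probes, the log2 ratios of 2 arrays correlated at -0.00885 to 0.361.

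**Figure D1:**
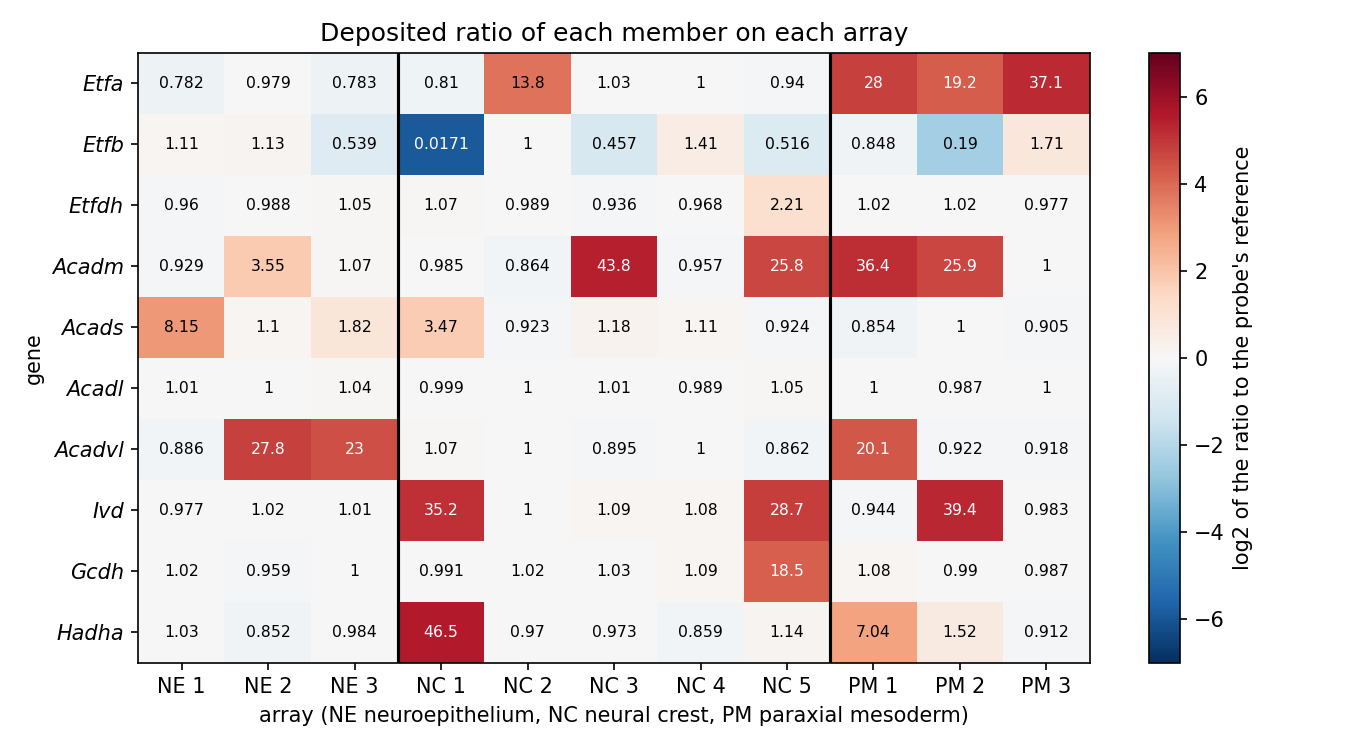
Deposited ratio of the 10 members (rows) on the 11 arrays (columns), coloured by log2 of the ratio and printed as the ratio itself. Etfa is above 19 on all 3 mesoderm arrays, whereas each partner is high on other sets of arrays or on none.

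The partners of Etfa in electron transfer, Etfb and Etfdh, were high on 0 of 11 arrays. A ratio near 1 does not show that a gene was off, so this count does not show that either was absent. Etfb (probe 10552418), the ETF beta subunit, had ratios of 0.848, 0.190 and 1.71 on the mesoderm arrays. It had 1.11, 1.13 and 0.539 on the neuroepithelium arrays and 0.0171, 1, 0.457, 1.41 and 0.516 on the crest arrays. The 3 groups overlapped, and Etfb was at or below a ratio of 0.25 on crest array 1 and mesoderm array 2. It was the single member with such low ratios, whereas 5.30% of all probes were that low on at least 1 array. Its log2 difference of mesoderm was -0.44 (SE 1.55) from neuroepithelium and 0.87 (SE 1.39) from crest. Both took the other sign with 1 array left out, to 0.45 without mesoderm array 2 and to -0.225 without crest array 1. With ratios below 0.1 set to 0.1, the difference from crest was 0.36. Etfdh (probe 10498837), which takes electrons from ETF to ubiquinone, was 1.02, 1.02 and 0.977 in mesoderm, 0.960, 0.988 and 1.05 in neuroepithelium, and 0.936 to 2.21 with a median of 0.989 in crest. Etfdh differed from its reference by over 2-fold on crest array 5 only. Its mesoderm difference from neuroepithelium was 0.01 (SE 0.29), with a 95% interval of -0.65 to 0.67. That SE pools the 3 tissues, and the SD of Etfdh was 0.037 in mesoderm, 0.069 in neuroepithelium and 0.52 in crest.

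The dehydrogenases of straight-chain fatty acids differed among themselves. Acadm (probe 10502951), which acts on medium-chain acyl-CoA, had ratios of 36.4, 25.9 and 1 on the mesoderm arrays. On the crest arrays it had 0.985, 0.864, 43.8, 0.957 and 25.8, and on the neuroepithelium arrays 0.929, 3.55 and 1.07. It was thus high on 2 of 3 mesoderm arrays and 2 of 5 crest arrays, it stayed at 1 on mesoderm array 3 where Etfa was highest, and the tissues overlapped. Its mesoderm difference was the largest of the partners against neuroepithelium (log2 2.69, SE 1.97, 95% interval -1.77 to 7.15) and was 1.32 (SE 1.76) against crest. Without mesoderm array 1 these became 1.74 and 0.38, and without array 3 4.33 and 2.97.

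Acadvl (probe 10387768), the membrane-bound enzyme of very long chains, was high on neuroepithelium arrays 2 (27.8) and 3 (23.0) and on mesoderm array 1 (20.1). Its ratios on the remaining 8 arrays were 0.862 to 1.07, including all 5 crest arrays. Mesoderm differed by log2 -1.69 (SE 1.48) from neuroepithelium and by 1.42 (SE 1.32) from crest, and the latter was -0.06 without mesoderm array 1. Crest against neuroepithelium gave a log2 difference of -3.10 (SE 1.32, 95% interval -6.11 to -0.10), the 1 partner difference with an unadjusted p under 0.05 in limma (adjusted p = 1.00), and the groups overlapped because neuroepithelium array 1 was at 0.886. Without that array the difference was -4.72. The fit shares 1 spread over the 3 tissues, whereas the SD of Acadvl was 0.13 in crest and 2.80 in neuroepithelium. The interval and the p of this difference rest on that shared spread. Acads (probe 10532926), for short chains, was high on neuroepithelium array 1 alone (8.15), with 1.10 and 1.82 on the other neuroepithelium arrays. In crest it ranged from 0.923 to 3.47 with a median of 1.11, and array 1 was the highest. In mesoderm it was 0.854, 1 and 0.905, below all 3 neuroepithelium arrays (log2 difference -1.46, SE 0.73, 95% interval -3.13 to 0.20). Without neuroepithelium array 1 that difference was -0.62. Acadl (probe 10355246), for long chains, stayed between 0.987 and 1.05 on all 11 arrays, as within 2-fold as 71.9% of all probes were. Its mesoderm and neuroepithelium arrays did not overlap either, at 0.987 to 1.00 and 1.00 to 1.04, but the log2 difference was -0.03 (SE 0.03).

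Ivd and Gcdh, dehydrogenases of amino acid breakdown, did not pass the test in any comparison. Nor did any other partner, and at most 0.0275% of all probes passed in a comparison. Ivd (probe 10474836), which acts in leucine breakdown, reached 39.4 on mesoderm array 2, 35.2 on crest array 1 and 28.7 on crest array 5. Elsewhere it lay between 0.944 and 1.09. Its mesoderm mean differed by log2 1.73 (SE 1.91) from neuroepithelium and by -0.31 (SE 1.71) from crest, with overlap in both. Without mesoderm array 2 these were -0.06 and -2.10, and the difference from crest was 0.39 to 0.59 when crest array 1 or 5 or mesoderm array 1 or 3 was left out. Gcdh (probe 10580233), which acts in lysine and tryptophan breakdown, was high on crest array 5 alone (18.5) and was between 0.959 and 1.09 on the other 10. Its mesoderm difference from crest was -0.85 (SE 0.92), and -0.02 without crest array 5. Hadha (probe 10528929), the alpha subunit of the trifunctional protein that carries out later steps on long chains, is not a donor to ETF. It was high on crest array 1 (46.5) and mesoderm array 1 (7.04). The other 9 arrays had 0.852 to 1.52. Mesoderm differed from neuroepithelium by log2 1.17 (95% interval -2.23 to 4.56), and by 0.305 without mesoderm array 1. Its difference from crest was 0.01 (SE 1.34), but 1.12 without crest array 1 and -0.85 without mesoderm array 1.

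No partner passed the test in any comparison. With limma and Benjamini-Hochberg adjustment over 21789 probes, 0 of 9 partners passed in mesoderm against neuroepithelium (lowest adjusted p = 1.00), in mesoderm against crest (lowest 1.00) or in crest against neuroepithelium (lowest 1.00). At an unadjusted p under 0.05 there were 0, 0 and 1. Over all probes 0.0138%, 0.00918% and 0.0275% passed and 2.41%, 2.86% and 2.77% had an unadjusted p under 0.05, so few genes passed here at all. In both mesoderm comparisons 0 of 21789 probes passed as higher in mesoderm. The count of 0 partners is therefore not particular to them and cannot tell whether a partner followed Etfa. Mesoderm was above neuroepithelium for 5 of 9 partners (median log2 difference 0.01, against -0.00 over all probes) and above crest for 4 of 9 (median -0.02, against -0.00). No partner had mesoderm arrays all above neuroepithelium arrays (2.88% of all probes) or all above crest arrays (1.24%), and Acads and Acadl had them all below neuroepithelium (3.97%, and 6.86% either way). Against crest 0 of 9 were apart in either direction (1.40% of all probes below, 2.63% either way). Crest and neuroepithelium overlapped for 9 of 9 (crest all below in 1.54% and apart either way in 2.95% of all probes). Both mesoderm comparisons use the same 3 mesoderm arrays. The intervals were wide, at the widest -1.77 to 7.15 for Acadm against neuroepithelium, and a p that misses the threshold does not show that a partner was unchanged.

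**Figure D2:**
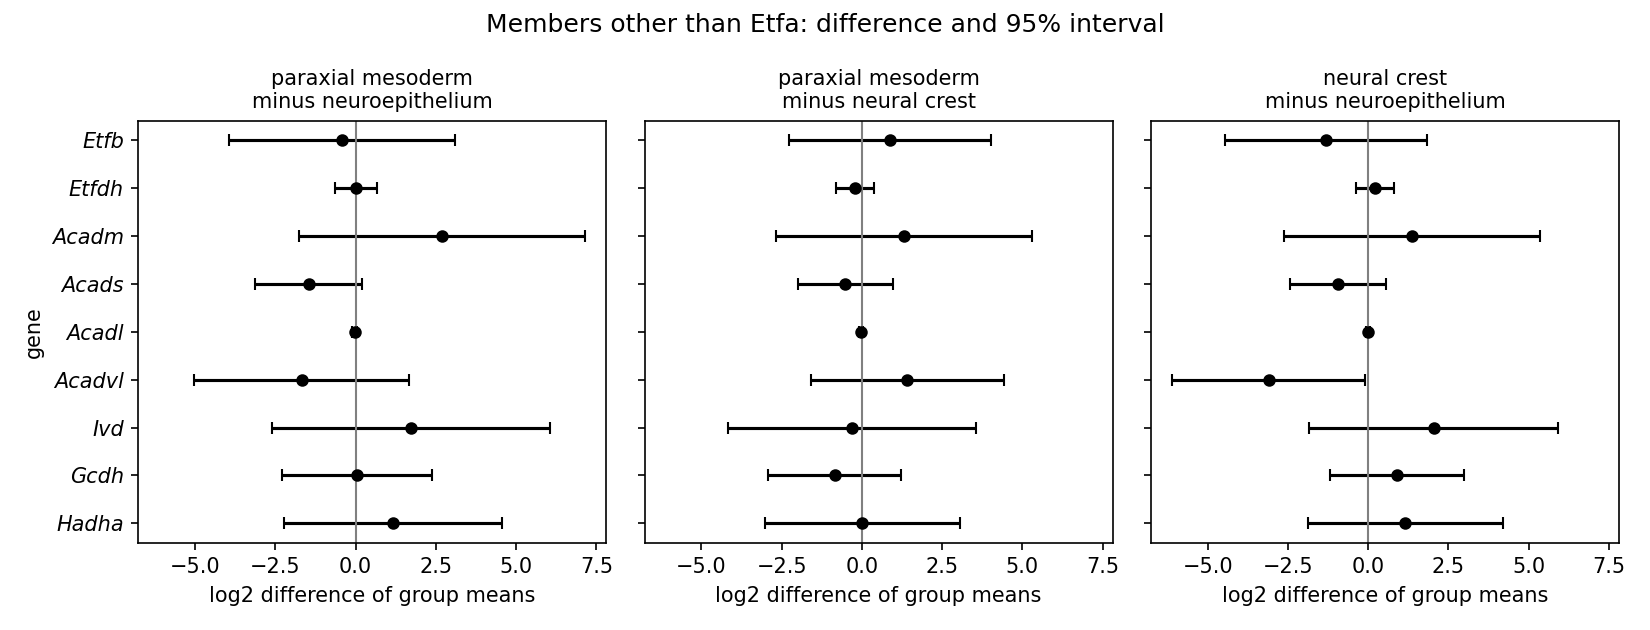
Difference of group mean log2 ratio (points) and its 95% interval from limma (bars) for the 9 partners in the 3 comparisons. All intervals cross 0 except that of Acadvl in crest against neuroepithelium, which ends at -0.10. The spread behind each interval is shared by all tissues.

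On the mesoderm arrays, partners were high with Etfa in 5 of 27 values (9 partners on 3 arrays). Mesoderm array 1 held 3 of them (Acadm, Acadvl and Hadha), array 2 held 2 (Acadm and Ivd) and array 3 held 0, although Etfa was highest on array 3. On crest array 2, the other array with high Etfa, 0 of 9 partners were high. In neuroepithelium 3 of 27 partner values were high and in crest 6 of 45. The shares were 18.5% in mesoderm, 13.3% in crest and 11.1% in neuroepithelium, beside 4.53%, 4.41% and 3.96% of the values of all probes. At a ratio of at least 2 the mesoderm count was also 5, and at 8 it was 4. Without mesoderm array 1 it was 2 of 18, without array 2 it was 3 of 18 and without array 3 it was 5 of 18.

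Each partner's high arrays overlapped those of Etfa in part or not at all. Acadm was high on 4 arrays and shared 2 with Etfa, which is 2 of the 4 of each. Acadvl and Ivd each shared 1 of their 3 high arrays with Etfa, and Hadha 1 of 2. Acads and Gcdh shared 0 of 1, while Etfb, Etfdh and Acadl were high nowhere. Among partners, Acadm and Ivd shared crest array 5 and mesoderm array 2, and Gcdh joined them on crest array 5. Leaving out Etfa, 6 of 9 partners were high on at least 1 array, against 21.0% of all probes, and 4 on at least 2 arrays, against 12.1%. Acads and Gcdh were high on 1 array only (8.90% of all probes), 3 partners on at least 3 arrays (7.34%), and Acadm on 4 (4.21% on at least 4).

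High partners were most frequent on the 2 arrays with the most high probes overall. Their number was 3 of 9 on crest array 5 and on mesoderm array 1, which had 7.33% and 7.88% of all probes high, the most of the 11. It was 0 on crest array 4 (2.00%) and mesoderm array 3 (1.83%), but also 0 on crest array 2 (5.60%), and 2 on crest array 1 (1.97%). The part of this difference between arrays in the pattern of the partners was not tested. Etfa was high on the mesoderm arrays with the most and with the fewest high probes.

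**Figure D3:**
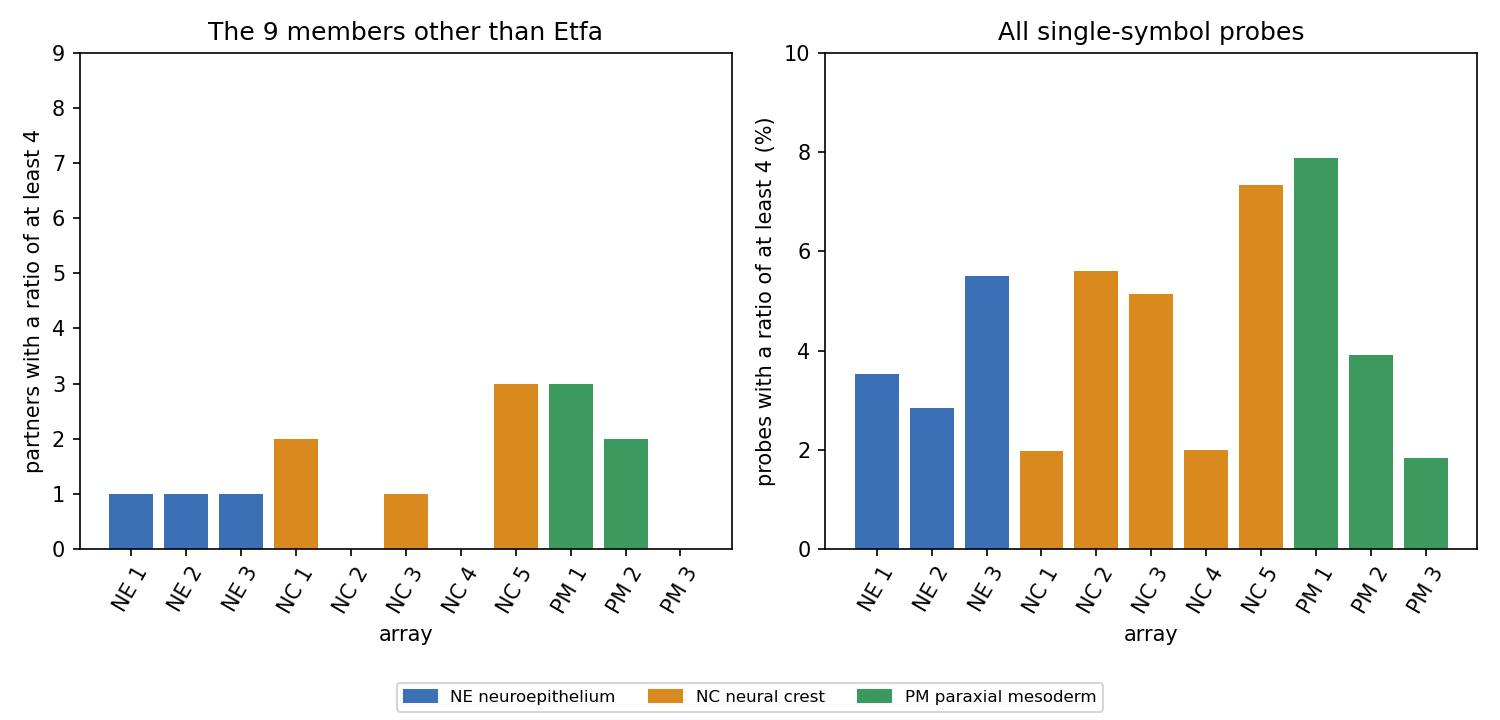
Number of the 9 partners with a ratio of at least 4 on each array (left) and percentage of 21789 probes with such a ratio (right), coloured by tissue. Crest array 5 and mesoderm array 1 have the tallest bars on both sides, and mesoderm array 3 has no high partner and the lowest percentage.

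The mesoderm arrays also differed in markers of other cells. Of 8 measured genes of primitive red cells, 7 were high on mesoderm array 1, where Acadm, Acadvl and Hadha were high, and 0 on every other array. Of 11 genes of surface ectoderm, 5 were high on mesoderm array 2, where Acadm and Ivd were high, 1 on array 3 and 0 on array 1, beside 4, 6 and 6 on the neuroepithelium arrays. Of 10 genes of neuroepithelium, 0, 0 and 1 (Otx2) were high on the neuroepithelium arrays, so they say little about that label. Of 13 measured genes of paraxial mesoderm itself, such as Meox1 and Tcf15, 0 were high on any of the 11 arrays, so the tissue label could not be checked from them. Mesoderm array 2 also had high Otx2 (53.6), 1 of 10 neuroepithelium genes, and its high Krt19 (65.0) and Cldn6 (25.1) stand in the notochord and gut endoderm lists too. Mesoderm array 3, where Etfa was 37.1 and 0 partners were high, had high Krt8 (30.5) of surface ectoderm, Foxa2 (7.64), 1 of 10 gut endoderm genes, and Nog (9.63), 1 of 7 notochord genes. The part of these markers in the high ratios of the partners was not tested.

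Other enzymes of the same matrix pathway were likewise high on scattered arrays. Of 15 probes for 14 genes of acyl-CoA oxidation beyond the members, 8 were high on at least 1 array (21.0% of all probes), 7 on at least 1 mesoderm array (11.6%) and 0 on all 3 (0.0780%). In limma 0 passed in any comparison. Hadh, the dehydrogenase of the third step for shorter chains, was high on 6 arrays, with 104 on crest array 1 and 103 on mesoderm array 2. These 6 included all 4 arrays on which Acadm was high, a coincidence noticed after the values were seen. In all 71 of 21789 probes (0.326%), Acadm among them, were high on those 4 arrays. Eci2, an isomerase for unsaturated chains, had the largest mesoderm difference of the list, with 57.6 on mesoderm array 1, 70.3 on array 2, 24.4 on crest array 5 and 0.845 to 1.10 elsewhere, and like Acadm it stayed near 1 on mesoderm array 3 (0.983). Hadhb, the beta subunit that pairs with Hadha, was measured by 2 probes that gave similar ratios on every array. They were 52.1 and 47.2 on mesoderm array 1, where Hadha was 7.04. On crest array 1, where Hadha was 46.5, Hadhb was 0.850 and 0.867. Whether these 2 probes share sequence was not tested. Acad10, Acad11, Acad12, Acad9 and Acadsb, other members of the dehydrogenase family, stayed between 0.876 and 1.14 on all arrays, as Acadl did. A further member, Acad8, which acts in valine breakdown, was high on crest array 2 (26.8) and mesoderm array 2 (31.4), where Etfa was high as well. On mesoderm arrays 1 and 3, where Etfa was also high, Acad8 was 1 and 0.996. This overlap was noticed after the values were seen. Echs1, the hydratase of the second step, was high on crest arrays 2 to 5 and on mesoderm array 2 (73.1). Decr1, an enzyme for unsaturated chains, was the single gene of the list high on mesoderm array 3, at 4.74.

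**Figure D4:**
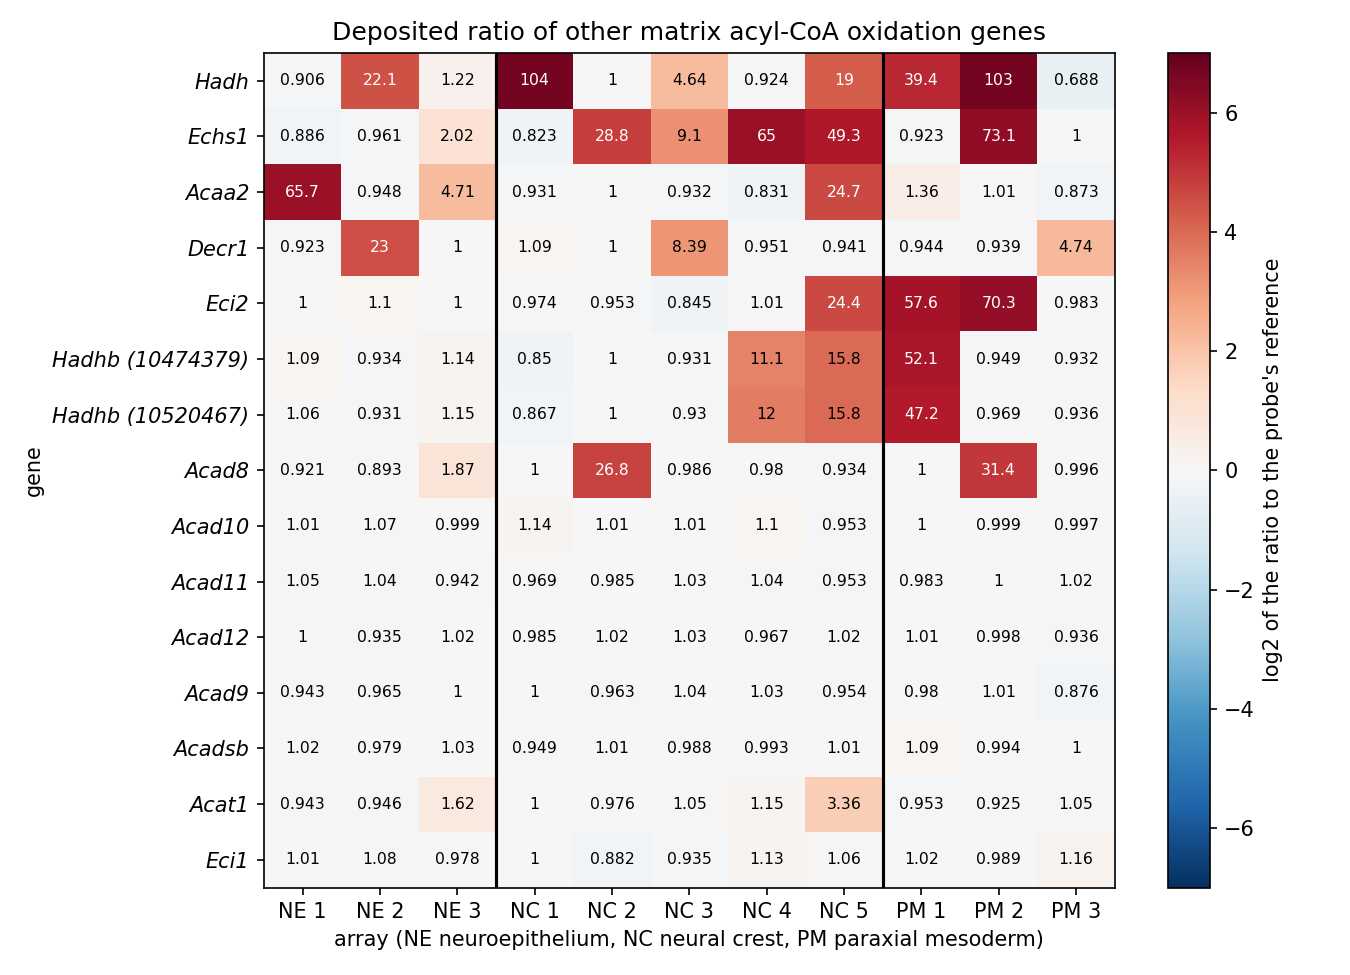
Deposited ratio of 14 further genes of matrix acyl-CoA oxidation (15 probes in rows, Hadhb with 2) on the 11 arrays, coloured by log2 of the ratio. Hadh, Eci2 and Hadhb are high on mesoderm array 1, Hadh, Echs1, Eci2 and Acad8 on array 2, Decr1 on array 3, and 7 of the 15 probes are high on no array.

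Among supply and control genes around the pathway, limma called 0 probes in any comparison, as it did for nearly all probes. Of 12 probes for the carnitine shuttle and acyl-CoA activation, 4 were high on some array and 1 in mesoderm, and Acsf3, an acyl-CoA synthetase of mitochondria, was high on neuroepithelium array 3 (52.7) and crest array 2 (12.0). Of 7 probes for other donors and helpers of ETF, 2 were high somewhere. Etfbkmt, the enzyme that methylates the ETF beta subunit, was high on neuroepithelium array 2 (80.6) and crest array 3 (37.1) and was 0.901 to 1.01 in mesoderm. Of 3 probes for flavin supply 2 were high, and Rfk, which makes flavin mononucleotide, ranged from 0.171 to 16.6. Peroxisomal oxidation had 2 of 8 probes high and regulators of fatty acid oxidation 3 of 14. Crot, a peroxisomal carnitine transferase, reached 54.1 and Mlycd, malonyl-CoA decarboxylase, 12.7, both on mesoderm array 2, and Crot was also high on neuroepithelium arrays 1 (16.2) and 3 (8.95) and crest array 2 (4.91). Over the 76 probes of all 7 lists, 18 were high on at least 1 mesoderm array (23.7%, against 11.6% of all probes), 0 on all 3, and 32 on any array (42.1%, against 21.0%). The genes named here went both ways, from -1.66 for Etfbkmt to 1.29 for Mlycd in mesoderm minus the mean of the other tissues. The median of that difference lay between -0.02 and 0.03 on the log2 scale in all 7 lists, against -0.01 over all probes.

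The 5 probes whose log2 ratios lay closest to those of Etfa over the 11 arrays belonged to Rad1, Reep6, Zfp825, Coa6 and Gatc. Their root mean square distances ran from 1.00 to 1.64, and they were picked by that closeness. A probe at 1 on every array would lie at 2.75, and 9051 of 21788 other probes lay nearer than that. The 9 partners ran from 2.75 (Acadl, rank 10082) to 3.54 (Etfb, rank 20672). The values of Etfa chose the members, so these distances were not tested. Rad1, part of a DNA damage checkpoint clamp, reached 24.9 on crest array 2 and had 9.11, 9.22 and 24.4 in mesoderm. Gatc, a subunit of a mitochondrial transfer RNA amidotransferase, had 23.9, 23.7 and 15.0 in mesoderm, and in crest it was high on array 2 (21.6) and array 5 (26.4). Reep6 and Zfp825 were high on mesoderm arrays 1 and 3 and Coa6, a cytochrome oxidase assembly factor, on arrays 2 and 3. High ratios on all 4 arrays of Etfa were found for 4 of 21789 probes (0.0184%), Etfa among them.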

How the data were processed

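Per the submitters' processing notes, RMA and the genome build mm9 were used, without versions. The deposited values are linear ratios of each array to a reference of the same probe, with column medians of 0.991 to 1.01. How the authors formed the reference is not stated in the labels. A ratio of 1, within 1e-05, stood on exactly 1 array for 26131 of the 28856 probes with values. Of 28856 probes with values, 21789 had 1 symbol in the platform annotation, 1621 several and 5446 none. The 21698 probes matched by Entrez identifier to RefSeq kept their symbols.

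Log2 of the ratio was fitted with lmFit and eBayes in limma 3.58.1 under R 4.3.3, with 3 tissue means over all 11 arrays. Each probe had a spread shared by the 3 tissues, though spreads differed between tissues for several members. No intensity trend was used, because ratios hold no intensity. P-values were adjusted by Benjamini-Hochberg over the 21789 probes at a two-sided threshold of 0.05. The fit was also run on simulated data with normal noise of equal spread in every tissue. These ratios differ from that in spread, so nothing about the partners is read from it. The number of arrays limits the precision. A ratio of at least 4 was called high. Named were all 10 members, the pathway gene furthest off in mesoderm per list, and the 5 probes nearest to Etfa, and other names were chosen after their values were seen. Members and lists were chosen with earlier results of these data known. Alternatives changed the variance prior, probe choice, scaling, low ratios, filters, weights and arrays.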

Additional observations from a re-analysis of the deposited data

Results flagged for a closer look

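The gap of 1 array to the nearest other, over the range of the group, was compared with Dixon's 95% critical value on the log2 scale. Normally distributed values would exceed it by chance in about 1 of 20 groups, and these ratios need not be so distributed. In the neural crest group of 5 arrays, 5 of 9 partners exceeded it. Among all 21789 probes 15.0% did so. Etfb was low on crest array 1, at 0.0171, close to the lowest deposited ratio of all probes (0.01). On the same array Hadha was at 46.5 and Acads at 3.47. Gcdh (18.5) and Etfdh (2.21) stood apart on crest array 5. Etfa, whose pattern chose the members and which is not in that count, was at 13.8 on crest array 2 alone of the 5.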

How the results depend on the processing

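The count of 0 partners passing held in all 3 comparisons under all 24 alternatives in limma, and the lowest adjusted p of a partner was 0.653. The difference of Etfa in mesoderm stayed between 4.76 and 5.26 on the log2 scale against neuroepithelium and between 3.25 and 4.85 against crest. Of 717 member differences under an alternative, 28 took the other sign, in 7 members and none of them Etfa; none of these differences was called. Leaving out a mesoderm array moved the count of high partner values in mesoderm from 5 to between 2 and 5, an alternative chosen after seeing the data. Over all probes, mesoderm against neuroepithelium called 3 (0 higher and 3 lower in mesoderm), and 3 to 40 with 1 array left out. The most, 35 higher and 5 lower, came without mesoderm array 3. Mesoderm against crest called 2 (0 higher and 2 lower in mesoderm). It called 0 with the intensity trend, 1 with quantile normalization and 1 to 45 with 1 array left out. The most, 40 higher and 5 lower, again came without mesoderm array 3. Crest against neuroepithelium called 6, but 2 with the trend, 10 with only these 2 tissues and 5 to 20 with 1 array left out. The cause of these changes was not tested. With the replicate number as a block the counts were 2, 3 and 6, and 0 partners passed; same-numbered arrays of different tissues had correlations of -0.145 to 0.0525 in their deviations over 9 pairs, so the numbers are not taken as pairs. No total signal per array can be read from ratios, so depth could not be weighed.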

Other observations

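Genes of branched-chain amino acid and lysine breakdown, the pathways in which Ivd and Gcdh act, had 11 of 17 probes high on at least 1 array (21.0% of all probes) and 0 on all 3 mesoderm arrays (0.0780%). Bckdha, a subunit of the branched-chain keto acid dehydrogenase, had ratios of 30.7, 36.8 and 5.80 in neuroepithelium, reached 14.0 on crest array 4 and 13.1 on crest array 5, and was 0.471, 0.577 and 2.01 in mesoderm. Its mesoderm value was lower by 3.02 on the log2 scale than the mean of the other tissues, and 0 probes of the list were called in limma. Auh, an enzyme of leucine breakdown, reached 152 and 77.0 on crest arrays 1 and 2 and was 0.891 to 1.09 elsewhere. Of these 2 arrays Ivd was high on array 1 only. Hibch, of valine breakdown, was high on neuroepithelium array 1 (41.4), crest array 5 (39.7) and mesoderm array 1 (53.2). Auh and Hibch were named after their values were seen.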
